A study of Mus musculus with 4 samples.

Results

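Secreted Wnt antagonists are proteins released from cells that keep Wnt signals from their receptors. The 10 genes described here are the secreted frizzled-related genes Sfrp1, Sfrp2, Sfrp4, Sfrp5 and Frzb, the Wnt inhibitory factor gene Wif1, and the Dickkopf genes Dkk1, Dkk2, Dkk3 and Dkk4. They were chosen by gene symbol in the authors' deposited signal table, which held 10 probes for them, 1 probe a gene and 1 spot a probe, out of 55681 probes and 24277 named genes. Blood progenitors were sorted from the marrow of adult mice, and their RNA was hybridised to 4 single-colour Agilent arrays. The groups were SFRP5 LSK and SFRP5 CLP, sorted from mice carrying an SFRP5 transgene, and WT LSK and WT CLP, sorted from their wild-type littermates, with 1 array a group. LSK cells are lineage-negative, c-kit high and Sca-1 positive and hold the blood stem cells and multipotent progenitors. The CLP gate took lineage-negative cells with IL7Rα and low amounts of c-kit and Sca-1, which enriches common lymphoid progenitors. All 4 samples were freshly isolated marrow cells, and 6.1 ng of total RNA was labelled with Cy3 for each. The promoter and sequence of the transgene, the number of mice behind a sample and whether the sorts of a genotype came from the same mice were not stated in the labels.

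Wnt proteins bind Frizzled receptors together with the co-receptors LRP5 and LRP6, and in the canonical branch this stabilises beta-catenin, which switches on target genes with TCF and LEF factors. The Sfrp proteins and Frzb carry a cysteine-rich domain like that of the Frizzled receptors and bind Wnt proteins, and Wif1 binds them through a domain of its own. Dkk1 and Dkk4 instead bind the LRP co-receptors, in the case of Dkk1 together with Kremen receptors. In bone marrow such antagonists are known mainly as products of stromal and bone-forming cells, which surround the blood progenitors.

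Levels are given as the scanner's processed intensity ± the error that the scanner software gives for that spot, and as log2 of the intensity relative to the 75th percentile of its own array. A gene is called above background where the software flagged its spot as well above background. The lowest intensity that passed this flag was 9.93 in SFRP5 LSK, 9.99 in WT LSK, 9.71 in SFRP5 CLP and 8.49 in WT CLP. On every array some signals that failed the flag lay above this value. Bounds against it, given below as "at least", are therefore nominal and not strict limits. With 1 array a group no difference has a replicate check, nothing was tested, and precision is limited by the number of arrays. "Higher" and "lower" describe these arrays, and the spot's own error covers neither mice, sorting nor amplification. Between sorts, the genes of the gates stood as the sort labels say. Il7r was higher in CLP than in LSK by 2.24 in SFRP5 and 3.03 in WT on the log2 scale, and Kit was lower, with a difference of -1.71 in SFRP5. Of the 6 sort markers, Slamf1 was not above background on any array, and in both genotypes 1 of the 5 others was higher and 4 were lower in CLP, each by 2-fold or more. Flt3 was among the lower, at -2.78 in SFRP5 and -2.71 in WT. Between genotypes Il7r differed in LSK, where it was 2.65-fold higher in SFRP5. It was the 1 of 5 measured sort markers past 2-fold there, against 13.7% of all measured genes, and none was in CLP. Genes of the sex chromosomes also separated the genotypes. Xist was above background on both SFRP5 arrays and on neither WT array. Of 4 Y-linked genes 3 in LSK and 4 in CLP were at least 2-fold lower in SFRP5. All 4 Y-linked genes were still above background on both SFRP5 arrays, as on both WT arrays. Transgene and sex-linked expression therefore cannot be told apart in any genotype difference below.

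Most of the secreted antagonists gave no signal above background in these progenitors. Sfrp5 and Dkk4 were above background on all 4 arrays, Sfrp4 on 3 and Sfrp2 on 1. The other 6 genes, Sfrp1, Frzb, Wif1, Dkk1, Dkk2 and Dkk3, were above background on none. By array, 2 of the 10 genes were above background in SFRP5 LSK, 3 in WT LSK, 4 in SFRP5 CLP and 3 in WT CLP. Over all genes that share was 68.6% in SFRP5 LSK, 72.0% in WT LSK, 69.3% in SFRP5 CLP and 68.8% in WT CLP. Across the 40 values of the 10 genes, the 12 above background lay between 12.2 and 290.1. The 18 that also failed the software's weaker test, that a signal is positive and significant against its background, lay between 1.81 and 2.63. These 18 intensities were 0.995 to 0.997 times their own error, so each is a placeholder for the noise and not a measured level. In bulk RNA, fewer cells making a transcript and less of it in each cell cannot be told apart.

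**Figure D1:**
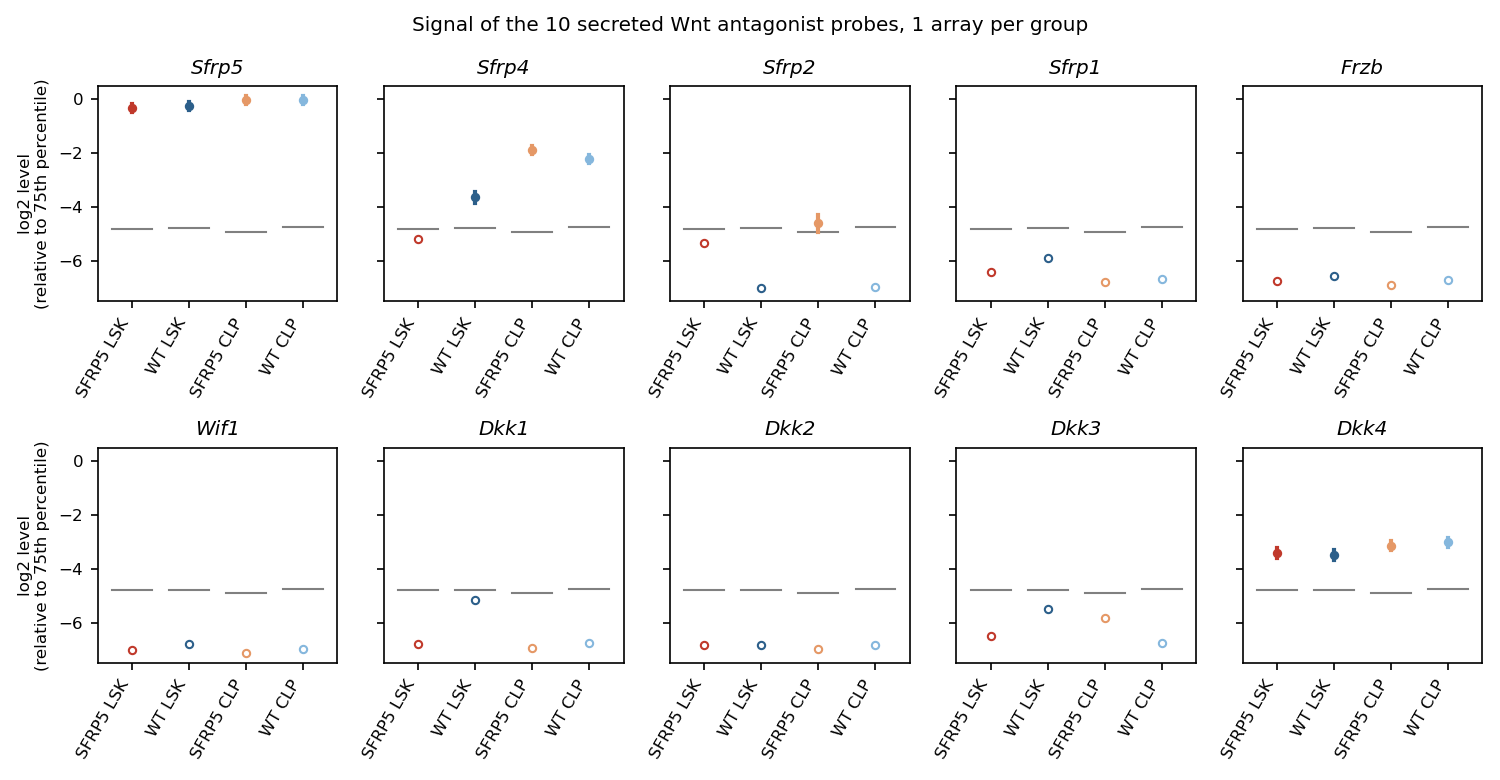
Each panel shows 1 gene and each point 1 array, from left to right SFRP5 LSK, WT LSK, SFRP5 CLP and WT CLP. The y axis is the log2 level relative to the array's 75th percentile, filled points are well above background with the scanner's error as a vertical line, open points are not, and grey lines mark the lowest level that passed the flag on that array. Sfrp5 and Dkk4 are nearly flat, Sfrp4 lies highest in SFRP5 CLP and below background in SFRP5 LSK, and 6 panels hold open points only. Levels of different genes come from different probes and are not comparable.

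Sfrp5, the mouse gene for the protein encoded by the transgene, was measured on every array and was nearly level. Its probe (A_55_P2020203, Entrez Gene 54612, at cytoband 19qC3 in the authors' table) read 224 ± 22.5 in SFRP5 LSK and 236 ± 23.7 in WT LSK. In the CLP sort it read 290.1 ± 29.1 in SFRP5 and 224 ± 22.5 in WT. The intensities of the SFRP5 CLP array were higher in general, its 75th percentile being 290.9 against 227.2 in WT CLP, and on the relative scale Sfrp5 stood at -0.00 in SFRP5 CLP and -0.02 in WT CLP. In LSK it stood at -0.31 in SFRP5 and -0.23 in WT. The 4 levels spanned 1.23-fold, the SFRP5 arrays being both the highest and the lowest. The genotype difference was -0.08 in LSK and 0.02 in CLP, each smaller than the spot error of the difference, 0.20. Both sorts' differences were within the spread of replicate spots as well, whose SD for such a difference was 0.11 in each sort. In the CLP sort the sign of that 0.02 changed between settings, which gave values from -0.02 to 0.12. Sfrp5 was higher in CLP than in LSK by 0.30 in SFRP5 and 0.21 in WT, and the WT value changed sign to -0.21 in the authors' deposited signal table. The labels do not say whether RNA of the transgene can hybridise to this mouse probe, so these values cannot be read as the level of the transgene.

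Sfrp4, a frizzled-related gene known for its part in bone, was the member that varied most among those above background. Its probe read 7.74 ± 2.30 in SFRP5 LSK and 22.4 ± 3.11 in WT LSK. In CLP it read 79.95 ± 8.29 in SFRP5 and 49.5 ± 5.28 in WT. Both CLP arrays were thus above both LSK arrays, and SFRP5 LSK was the 1 array on which Sfrp4 did not pass the flag. On the relative scale the levels were -5.17 in SFRP5 LSK, -3.63 in WT LSK, -1.86 in SFRP5 CLP and -2.20 in WT CLP.

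Sfrp4 was higher in CLP than in LSK in both genotypes. In WT, where it was above background in both sorts, it was 2.69-fold higher in CLP, a log2 difference of 1.43 against a spot error of 0.25 and a replicate-spot SD of 0.28. In SFRP5 it was at least 7.68-fold higher in CLP, this being a bound against the lowest signal that passed the flag in SFRP5 LSK. Between genotypes, Sfrp4 in LSK was at least 2.26-fold lower in SFRP5 than in WT by the same kind of bound. That bound is nominal, and a higher limit would make it smaller. Wnt7b, which failed the flag in SFRP5 LSK, stood at -4.376 there, above the lowest passing level of -4.804. In CLP Sfrp4 was 1.26-fold higher in SFRP5, a difference of 0.33 against a spot error of 0.22. The genotype difference in CLP minus that in LSK was 1.87, with the dim SFRP5 LSK signal entered as measured and a spot error of 0.52. These sizes moved with the processing. With normexp, which used the median signals, another background model and an added offset of 50, the WT sort difference was 0.59, below 2-fold, the SFRP5 sort difference 1.01 and the genotype difference in LSK -0.37, while no sign changed. The genotype difference in LSK was -1.003 with quantile and -1.10 with cyclic loess normalization, and -1.67 in the authors' deposited signal table.

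Sfrp2, a frizzled-related gene of fibroblasts and other mesenchymal cells, came above background on a single array. Its probe read 6.82 ± 2.32 in SFRP5 LSK, against 2.18 ± 2.19 in WT LSK. In CLP it read 12.2 ± 2.55 in SFRP5, against 1.85 ± 1.85 in WT. Only SFRP5 CLP passed the flag, not far above the lowest passing signal of that array. Both SFRP5 arrays, and neither WT array, passed the weaker test of a positive and significant signal. In CLP the gene was at least 1.13-fold higher in SFRP5 than in WT, a bound that stays under 2-fold because the signal lay close to the background. Over all genes, 116 of 24277 (0.478%) passed the weaker test on exactly these arrays. With normexp the difference in CLP, 2.37 as measured, became 0.05, and the difference between the SFRP5 sorts, 0.78 as measured, became 0.10.

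Dkk4, a Dickkopf protein that binds the LRP co-receptors, was above background on all 4 arrays at a low and even level. It read 26.3 ± 3.32 in SFRP5 LSK and 24.5 ± 3.197 in WT LSK, and 32.97 ± 3.84 in SFRP5 CLP and 28.2 ± 3.31 in WT CLP. The relative levels spanned 1.40-fold, with both CLP arrays above both LSK arrays. The genotype difference was 0.09 in LSK and -0.13 in CLP, each smaller than the spot error of 0.26 in LSK and 0.24 in CLP. The LSK value ran from -0.04 to 0.53 over the settings and changed sign. Dkk4 was higher in CLP than in LSK by 0.26 in SFRP5 and 0.49 in WT, against a spot error of 0.25 in both. The replicate-spot SD of these differences was larger, 0.35 in SFRP5 and 0.36 in WT. Over the settings the SFRP5 value ran from 0.04 to 0.32 and the WT value from 0.07 to 0.94.

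The other Dickkopf genes did not pass the flag. Dkk1, which is both an inhibitor of the pathway and one of its targets, read 2.49 in SFRP5 LSK, 7.68 in WT LSK, 2.35 in SFRP5 CLP and 2.09 in WT CLP. WT LSK alone passed the weaker test, a pattern shared by 552 genes (2.27%). Dkk3, a divergent Dickkopf gene, read 3.08 in SFRP5 LSK, 6.15 in WT LSK, 5.11 in SFRP5 CLP and 2.11 in WT CLP, and passed the weaker test on all but WT CLP. Dkk2 lay between 2.01 and 2.43 and passed it on no array.

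Sfrp1, Frzb and Wif1 were likewise not above background. Sfrp1, which has been studied as a regulator of blood stem cells made by marrow stroma, read 3.25 in SFRP5 LSK, 4.72 in WT LSK, 2.63 in SFRP5 CLP and 2.23 in WT CLP, and passed the weaker test on both LSK arrays. Frzb lay between 2.21 and 2.93 and Wif1 between 1.81 and 2.50, and WT LSK alone passed the weaker test for each. WT LSK was the array on which most of the 10 genes passed the weaker test. They numbered 6 in SFRP5 LSK, 8 in WT LSK, 5 in SFRP5 CLP and 3 in WT CLP. Over all probes the weaker test was passed by 82.2% in SFRP5 LSK, 87.1% in WT LSK, 83.4% in SFRP5 CLP and 83.9% in WT CLP. No fold is given for the 6 genes that stayed below background.

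The comparison of SFRP5 with WT, which the series made to find genes regulated by SFRP5 expression, therefore rests on few of these genes. In LSK, 2 of the 10 genes were measured on both arrays and neither reached 2-fold, while 13.7% of the 16125 genes measured there did, 6.57% higher and 7.17% lower in SFRP5. In CLP 3 were measured and none reached 2-fold, against 8.56% of 15941 genes, 4.25% higher and 4.3% lower in SFRP5. The split of these genes moved with the scaling. In LSK 47.8% of them were higher in SFRP5, against 62.8% after normexp, 59.1% and 63.4% after quantile and cyclic loess normalization, and 33.4% in the authors' deposited signal table. In CLP it was 49.7%, against 60.1% in that table. By a nominal bound, Sfrp4 in LSK was at least 2-fold lower in SFRP5. Of the genes above background on 1 LSK array alone, 42.6% were at least 2-fold higher or lower by such a bound. Sfrp2 in CLP did not reach 2-fold by its bound, where 34.7% of such genes did.

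Between the sorts, Sfrp4 was the member at or past 2-fold. In SFRP5, 2 genes were measured and neither reached 2-fold, against 22.5% of 15710 genes, 11.5% higher and 11.0% lower in CLP. Of 2 genes with a bound Sfrp4 reached 2-fold and Sfrp2 did not, where 50.0% of such genes did. In WT, 1 of 3 measured genes was at least 2-fold higher in CLP and none lower, against 32.1% of 16015 genes in either direction, 17.8% higher and 14.3% lower in CLP. Of the genes at 2-fold, 51.1% in SFRP5 and 55.5% in WT were higher in CLP, against 37.6% in SFRP5 and 26.6% in WT in the authors' deposited signal table and 66.1% in WT with normexp. A share of 1 in 3 is close to that background. No member was above background in 1 WT sort alone, where 46.3% of such genes reached 2-fold by a bound. The 2 members above background on all 4 arrays each spanned less than 1 on the log2 scale, so no gene was looked for with a pattern like theirs.

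**Figure D2:**
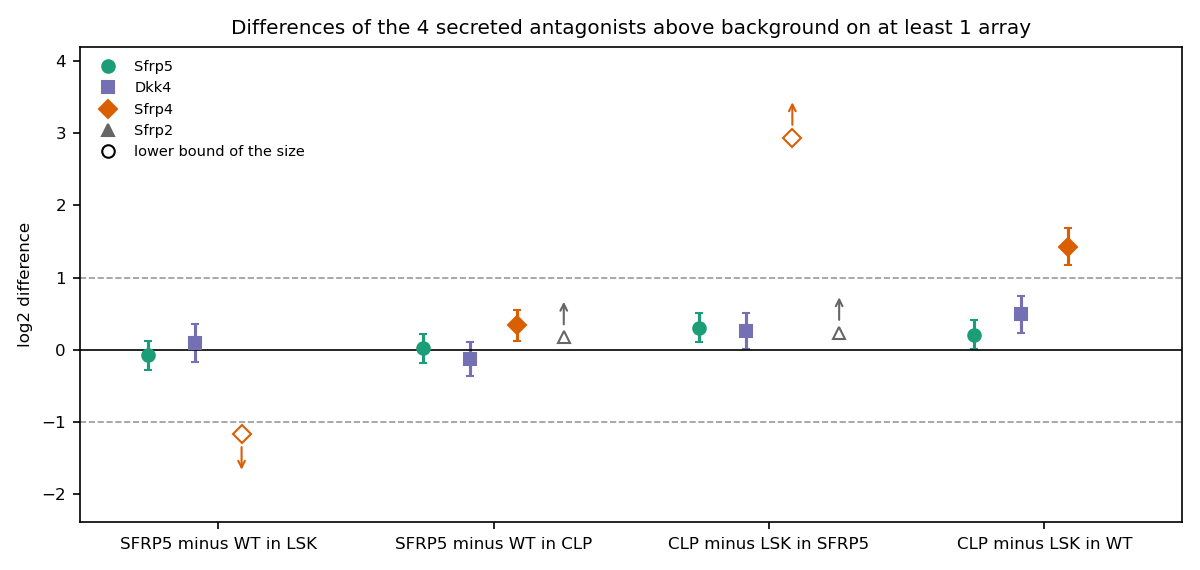
The y axis is the log2 difference between 2 arrays for Sfrp5, Dkk4, Sfrp4 and Sfrp2 in each of the 4 comparisons. Filled symbols are measured differences with the spot error of the difference. Open symbols with an arrow are nominal lower bounds of its size, and dashed lines mark 2-fold. Sfrp4 lies past 2-fold in 3 comparisons, 2 of them by a bound, and Sfrp5 and Dkk4 lie within it in all 4.

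Genes of marrow stroma and bone, the cells best known for making these antagonists, were partly above background. Of 16 such markers, 11 were above background in SFRP5 LSK, 11 in WT LSK, 14 in SFRP5 CLP and 13 in WT CLP. Over all genes the share was 68.6% in SFRP5 LSK, 72.0% in WT LSK, 69.3% in SFRP5 CLP and 68.8% in WT CLP. Over the 16 markers, levels in multiples of the 75th percentile summed to 12.5 in SFRP5 LSK and 7.54 in WT LSK. In CLP the sum was 7.14 in SFRP5 and 7.06 in WT. This sum adds different probes, also those below background, so the brightest genes weigh most and it does not measure stromal content. In all, 10 markers were above background on all 4 arrays, 62.5% of the list and the same share as of all genes. A further 4 were on some (Col1a1, Col3a1, Alpl and Lpl). The 2 on none were the osteoblast matrix gene Spp1 and the mesenchymal receptor gene Pdgfra. Between sorts 3 of 11 measured markers were at least 2-fold higher and 3 lower in CLP in SFRP5, and 3 of 11 were higher and 2 lower in WT. Between genotypes 3 of 10 were at least 2-fold higher and 1 lower in SFRP5 in LSK, and 4 of 13 were higher and 3 lower in CLP. The measured markers thus moved in both directions in every comparison. Markers above background in 1 sort alone were so in CLP and none in LSK, 3 in SFRP5 and 2 in WT. By bounds, Alpl was at least 8.61-fold higher in CLP in SFRP5 and 17.6-fold in WT, and Col3a1 3.31-fold and 1.34-fold. Lpl was at least 1.66-fold higher in CLP in SFRP5. Of all genes with such a bound, 50.0% in SFRP5 and 46.3% in WT reached 2-fold in either direction. Over all measured genes 13.7% in LSK and 8.56% in CLP reached 2-fold between genotypes, and 22.5% in SFRP5 and 32.1% in WT between sorts. The chemokine gene Cxcl12 was higher in CLP than in LSK by 3.48 in SFRP5 and 2.76 in WT, and it differed between genotypes by -1.41 in LSK and -0.70 in CLP. The mural cell receptor gene Pdgfrb was lower in CLP than in LSK, at -4.78 in SFRP5 and -2.27 in WT. Bglap, the osteocalcin gene, differed between sorts by -2.36 in SFRP5 and -0.36 in WT. It was higher in SFRP5 than in WT, 15.9-fold in LSK and 3.95-fold in CLP. Col1a1 was above background on both SFRP5 arrays and neither WT array, at least 5.78-fold higher in LSK and 4.93-fold in CLP. Lpl went the other way, at least 2.1-fold lower in SFRP5 in LSK and at -1.77 in CLP. For Cxcl12 and Bglap these are values of the brighter probe, the further probe of each being below background on all 4 arrays. Of 7 endothelial markers, 6 were above background in SFRP5 LSK, 6 in WT LSK, 4 in SFRP5 CLP and 5 in WT CLP. The marker not above background in LSK was Cdh5 in both genotypes. In CLP those were Cdh5, Tek and Emcn in SFRP5 and Tek and Esam in WT. These counts do not measure endothelial content. The summed endothelial level was 7.60 in SFRP5 LSK, 6.88 in WT LSK, 4.96 in SFRP5 CLP and 6.66 in WT CLP. The same limits hold for that sum. The part of these cells in the Sfrp4 and Sfrp2 signals was not tested.

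Further genes known to restrain the pathway were in part above background. Of 15 further secreted or membrane antagonists, 5 were above background on all 4 arrays and 5 on none (Sost, Cer1, Draxin, Shisa2 and Shisa3), where 62.5% of all genes were on all 4 and 22.7% on none. Between genotypes 6 of them were measured on both LSK arrays, none past 2-fold (13.7% of all measured genes were). On both CLP arrays 5 were measured, 1 of them at least 2-fold lower (8.56% of all measured genes were past 2-fold). That 1 was Znrf3, a ubiquitin ligase that removes Frizzled receptors, with -0.56 in LSK and -1.12 in CLP. Kremen1, a receptor that works with Dkk1, was higher in SFRP5 by 0.76 in LSK and 0.33 in CLP. It was lower in CLP than in LSK, at -1.12 in SFRP5 and -0.69 in WT. A further Kremen1 probe was above background in WT CLP alone. Kremen2, its relative, stood at -0.23 between genotypes in LSK and was close to background. Dkkl1, a Dickkopf-like gene, was at -0.49 in LSK and -0.34 in CLP between genotypes, and Notum, an enzyme that inactivates Wnt proteins, at -0.29 and 0.06. Between the SFRP5 sorts Dkkl1 stood at 0.02 and Notum at -0.07, and between the WT sorts Dkkl1 stood at -0.14 and Znrf3 at -0.05. Igfbp4, a binding protein that also acts on Wnt receptors, was at 0.13 in LSK and 0.12 in CLP between genotypes, and lower in CLP than in LSK, at -0.93 in SFRP5 and -0.92 in WT. The median of this list was -0.26 in LSK and 0.06 in CLP between genotypes, and -0.37 in SFRP5 and -0.42 in WT between sorts, where the medians of all genes were 0.02, -0.04, 0.02 and 0.02.

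**Figure D3:**
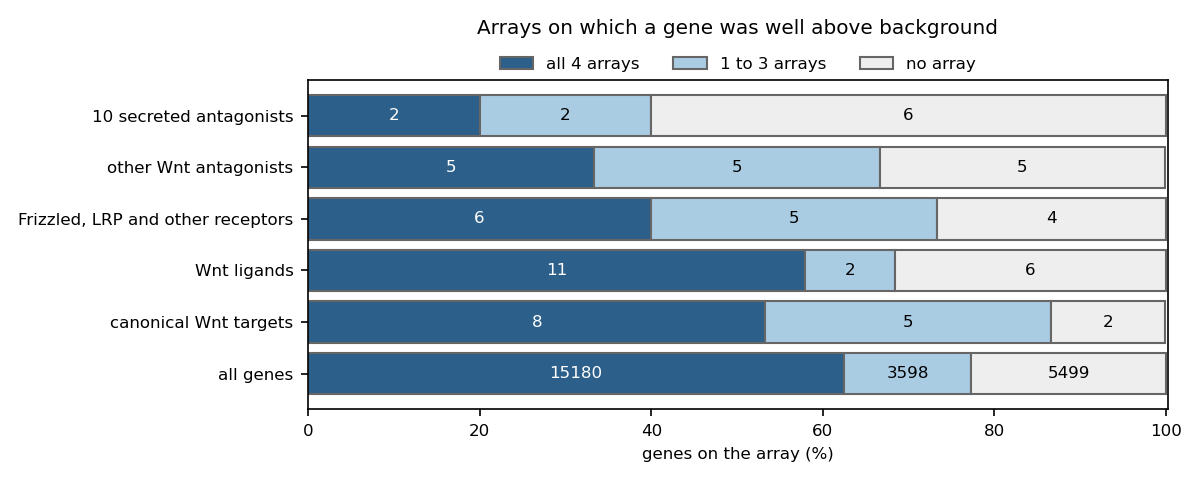
Bars give, for each gene list, the percent of its genes on the array that were well above background on all 4 arrays, on 1 to 3 arrays or on none, with the number of genes written in each segment. Of the 10 secreted antagonists 2 were above background on all 4 arrays and 6 on none, and of all 24277 genes 15180 were on all 4 and 5499 on none.

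The receptors to which these antagonists bind or whose Wnt ligands they capture were partly measured. Of 15 Frizzled, LRP and other Wnt receptor genes, 6 were above background on all 4 arrays (40.0%, against 62.5% of all genes). The co-receptors that Dkk1 and Dkk4 bind were among them. Lrp5 differed between genotypes by 0.35 in LSK and -0.25 in CLP, and Lrp6 by 0.25 in LSK and 0.75 in CLP. A further Lrp6 probe stood at 1.23 in SFRP5 LSK and 0.15 in WT LSK but at -0.23 in SFRP5 CLP and -0.08 in WT CLP, so the probes of Lrp6 differed in sign in CLP. Between genotypes in LSK, 1 of 7 measured receptors was at least 2-fold higher (Fzd5, 1.47) and 1 lower (Fzd6, -1.35). In CLP 1 of 6 was higher (Fzd6, 1.69) and none lower. Over all measured genes 13.7% in LSK and 8.56% in CLP reached 2-fold. A further 3 receptors were above background in WT CLP and not in SFRP5 CLP, and none the other way. By bounds set by their own dim signals, Ryk was at least 2.67-fold, Ror1 1.92-fold and Fzd2 1.58-fold lower in SFRP5 CLP. Of all genes with a bound there, 34.7% reached 2-fold in either direction. The further Fzd5 probe went the other way in LSK, with levels of -3.196 in SFRP5 and -2.42 in WT. Fzd7, another Frizzled receptor, differed between genotypes by -0.22 in CLP. Between sorts 22.5% of all measured genes in SFRP5 and 32.1% in WT reached 2-fold. None of 6 measured receptors was at least 2-fold higher and 1 was lower in CLP in SFRP5. In WT 1 of 6 was higher and 2 were lower. Fzd5 was the higher 1, at 1.77 in WT and 0.35 in SFRP5 by the brighter probe, while the further probe went the other way in WT, with levels of -2.75 in WT CLP and -2.42 in WT LSK. Fzd9 was lower in CLP, at -2.85 in SFRP5 and -3.25 in WT, and Fzd6 was at -0.41 in SFRP5 and -3.45 in WT. Fzd7 stood at -0.18 in SFRP5 and 0.21 in WT, Lrp5 at -0.48 and 0.12, and Lrp6 at -0.19 and -0.68. The other Wnt receptors Ryk and Ror1 were above background in WT CLP alone, Ryk at least 2.55-fold and Ror1 at least 2.12-fold higher there than in WT LSK. Fzd4 was above background in LSK alone, at least 4.74-fold lower in CLP in SFRP5 and 4.03-fold in WT. The list medians were 0.16 in LSK and -0.02 in CLP between genotypes, and -0.30 in SFRP5 and -0.28 in WT between sorts.

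Of the 19 Wnt ligand genes, 11 were above background on all 4 arrays and 6 on none. Over all genes 62.5% were on all 4 and 22.7% on none. Between genotypes 2 of 12 measured ligands were at least 2-fold lower in SFRP5 LSK, Wnt8b (-2.57) and Wnt6 (-1.20). In SFRP5 CLP 1 of 11 was, Wnt5b (-1.40), and none was at least 2-fold higher in either sort. Over all measured genes 7.17% were lower and 6.57% higher in LSK, and 4.3% lower and 4.25% higher in CLP. The further Wnt8b probe was above background in WT LSK and not in SFRP5 LSK. Wnt2b was highest between genotypes in LSK, at 0.78, and Wnt10b in CLP, at 0.69. Next to them stood Wnt5b in LSK, at 0.38, and Wnt4 in CLP, at 0.27, and the second lowest in CLP was Wnt9b, at -0.83. Between sorts 3 of 11 in SFRP5 and 5 of 13 in WT were at least 2-fold lower in CLP and none higher. Over all measured genes 11.0% were lower and 11.5% higher in SFRP5, and 14.3% lower and 17.8% higher in WT. Wnt2b was the lowest ligand, at -3.95 in SFRP5 and -2.93 in WT. Next came Wnt5b in SFRP5, at -1.54, and Wnt8b in WT, at -2.62 by the brighter probe. The further Wnt8b probe was above background in both WT sorts and differed less, with levels of -3.445 in WT CLP and -2.996 in WT LSK. The highest were Wnt10b (0.48) and Wnt4 (0.30) in SFRP5 and Wnt5b (0.24) and Wnt7b (0.23) in WT. The medians were -0.47 in LSK and 0.01 in CLP between genotypes, and -0.19 in SFRP5 and -0.52 in WT between sorts.

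Canonical target genes, a read-out of the pathway that the antagonists restrain, were partly measured between genotypes. Of 15 such genes 9 were measured in LSK with none past 2-fold, against 13.7% of all measured genes. These 9 ran from -0.56 for Znrf3 and Tnfrsf19 to 0.72 for Myc. In CLP 1 of 10 was at least 2-fold lower, Znrf3, against 8.56% of all measured genes in either direction. The cyclin gene Ccnd1 followed at -0.99, and Lef1, a partner of beta-catenin, was highest at 0.77. Tcf7, a factor of the same family, was higher in SFRP5 by 0.43 in LSK and 0.64 in CLP. Rnf43, like Znrf3 a ligase that removes Frizzled receptors, was above background in WT CLP alone, and at least 16.2-fold lower in SFRP5 CLP than in WT CLP. Axin2, the most used target, was above background in SFRP5 LSK and WT CLP by the brighter of its probes and in WT LSK and WT CLP by the other. The probes of Axin2 thus disagreed in LSK and were both below background in SFRP5 CLP. By the brighter probe Axin2 was at least 2.84-fold lower there than in WT CLP. The other probe, at -3.858 in WT CLP against -3.245 for the brighter, gives a smaller bound. The medians were -0.28 in LSK and 0.12 in CLP between genotypes. Between sorts 22.5% of all measured genes in SFRP5 and 32.1% in WT reached 2-fold. Of the targets, 1 of 8 was at least 2-fold higher and 2 lower in CLP in SFRP5, with a median of -0.11. In WT 1 of 9 was higher and none lower, with a median of -0.32. The 1 that was higher was Tnfrsf19, at 2.14 in SFRP5 and 1.72 in WT by the brighter probe. The further Tnfrsf19 probe was also higher in CLP but by less, with levels of -1.90 in SFRP5 CLP and -2.39 in SFRP5 LSK, and -1.93 in WT CLP and -2.35 in WT LSK. Tcf7 was higher in CLP by 0.79 in SFRP5 and 0.58 in WT. Ccnd1 was at -1.72 in SFRP5 and -0.97 in WT, Myc at -1.03 in SFRP5, and Nkd2, a feedback inhibitor, at -0.90 in WT. By bounds in WT, Lef1 was at least 19.2-fold, Rnf43 at least 15.0-fold and Lgr5 at least 7.01-fold higher in CLP. In SFRP5 Lgr5, a receptor for R-spondins, was at least 5.5-fold higher in CLP, while Sp5 was at least 1.32-fold lower. Axin2 was at least 2.03-fold lower by its brighter probe, the other probe being below background in both SFRP5 sorts. For Lef1 the bound is that of the brighter probe. The further Lef1 probe was also above background in WT CLP and not in WT LSK. It stood at -3.506 in WT CLP and -4.489 in WT LSK, a far smaller difference.

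**Figure D4:**
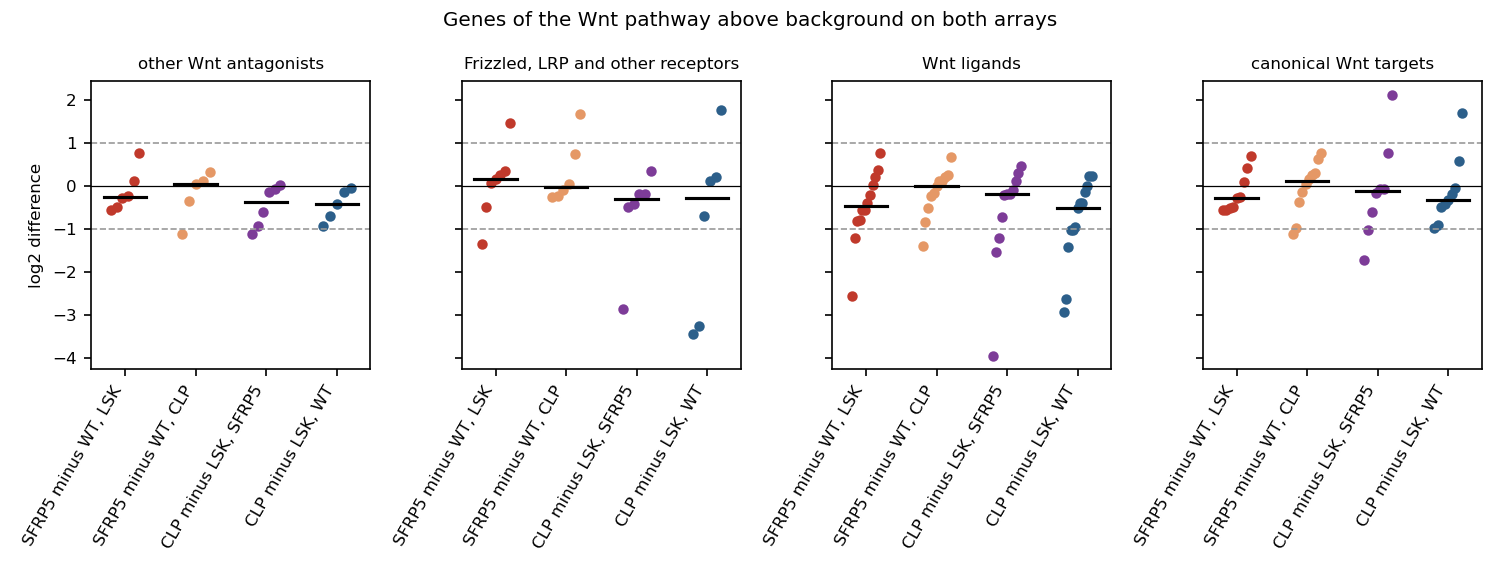
Each point is the log2 difference of 1 gene above background on both arrays of the comparison, in the 4 lists of further Wnt pathway genes. The short black lines are list medians and the dashed lines mark 2-fold. Between genotypes most points lie within 2-fold in both sorts, and the widest differences, -3.95 for Wnt2b in SFRP5 and -3.45 for Fzd6 in WT, are between sorts.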

How the data were processed

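Each deposited scanner file gives 1 processed Cy3 intensity a spot, from which, per the file headers, the software had removed background. The software was Agilent Feature Extraction, version 10.10.1.1 in the headers and 10.10 in the submitters' processing notes, and the annotation was on mm9. In their deposited signal table the authors had multiplied these intensities by a constant for each array, from 4.91 to 6.42. Here log2 intensities of 59305 spots outside the controls were set relative to each array's 75th percentile, outlier-flagged spots were left out, and each gene was represented by its brightest probe on average. Symbols were updated through RefSeq (GRCm38.p6). Further probes were compared for Axin2, Fzd5, Wnt8b, Tnfrsf19, Lrp6, Kremen1, Lef1, Bglap and Cxcl12 alone. Other named list genes with more than 1 probe, among them Lgr5, Tcf7, Ror1, Lpl, Nkd2, Fzd7 and Wnt4, are given by the brightest probe, and their further probes were not compared. Bounds use the lowest signal flagged well above background, or the gene's own dim signal where that was higher, as for Axin2 and Sp5 in SFRP5 CLP. Replicate spots of 399 probes gave the spot spread, and the arithmetic of the comparisons was checked on simulated levels with known differences, which tests no difference reported here. Named were all 10 genes and, from each list, the 2 highest and 2 lowest measured differences per comparison, with Axin2, Lrp5, Lrp6, Kremen1 and Kremen2; others named were chosen after their values were seen, and marker lists are given by examples. The members and lists were chosen with earlier results of these data known. A fit of genotype plus sort was not run, since it would take the sorts for replicates. Normexp, quantile and cyclic loess used limma 3.58.1 in R 4.3.3, and the rest pandas 2.3.3 in Python 3.11.15.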

Additional observations from a re-analysis of the deposited data

Results flagged for a closer look

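Sfrp4, Sfrp5 and Dkk4 had genotype differences of opposite sign in the sorts. How many of all genes did was not counted, so this is no trait particular to them. The sign of the Sfrp5 difference in CLP and of the Dkk4 difference in LSK changed between settings. Sfrp4 differed between SFRP5 and WT by -1.54 in LSK, where the SFRP5 signal was below background, and by 0.33 in CLP. Sfrp5 differed by -0.08 in LSK and 0.017 in CLP, and Dkk4 by 0.093 in LSK and -0.133 in CLP, all 4 of these values being smaller than the spot error. With 1 array a group, none of these differences between the sorts was tested.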

How the results depend on the processing

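No paired analysis was possible because each group had 1 array. With signals below background taken in, 4 genes reached 2-fold between genotypes in LSK, against 0, and 1 in CLP, against 0. Between sorts 1 did in SFRP5, against 0, and 3 in WT, against 1. The WT count was 0 with normexp and 0 over genes above background on all 4 arrays, which leaves out Sfrp4. By the weaker detection test 6 genes were called in SFRP5 LSK, against 2, and 8 in WT LSK, against 3. The genotype difference in CLP minus that in LSK was 0.42 with normexp and 1.33 with quantile normalization for Sfrp4, against 1.87, and -0.61 with quantile and -0.60 with cyclic loess normalization for Dkk4, against -0.23. The cause was not tested, and normexp differs from the main processing in its background model, in the signal used and in an added offset of 50. The scanner files given here hold no mean signal, so normexp was run on the median signals, chosen after seeing the data, as were the settings tried on the difference between the sorts. Over all genes, counts past 2-fold with normexp were 742 against 2215 between genotypes in LSK, 323 against 1364 in CLP, and 2085 against 3536 in SFRP5 and 3054 against 5136 in WT between sorts. With dim signals taken in they were 4957 and 3721 between genotypes in LSK and CLP, and 6277 and 8126 between sorts in SFRP5 and WT, and at 1.5-fold 5628, 3834, 6561 and 8987 in the same order. The authors' scaling moved the median of all genes to -0.40 between the WT sorts, against 0.02. No difference of Sfrp4 changed sign under the settings run, and differences of list genes were not computed under them. Signal over background limits 8 of the 10 genes.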
